A study of Homo sapiens with 34 samples.

Results

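The D-type cyclins and their kinases were followed as 5 genes, CCND1, CCND2, CCND3, CDK4 and CDK6, out of the 31975 genes measured by RNA sequencing in 34 established human B-cell lymphoma cell lines. The genes were taken by name and chosen by their levels in MCL against the other lines, known from earlier results of these data, so those levels are given as a description. All 5 exceeded the filter on low values. Per the labels, 11 lines came from mantle cell lymphoma (MCL) and 3 from Burkitt lymphoma (BL). The other 20 came from diffuse large B-cell lymphoma (DLBCL), 14 of the germinal centre B-cell (GCB) and 6 of the activated B-cell (ABC) subtype. The labels named no treatment, genotype or time in culture. They marked 30 libraries as re-analysed. The 4 not so marked were HBL-2, MAVER-1 and UPN1 of MCL and Daudi of BL. Each line gave 1 library, so a line is the replicate of its pathology and its own technical error was not measured.

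Levels are variance-stabilised read counts in log2 units, in which a gene without a read sits at 4.55, and reads are the whole numbers recovered from them. Depth in M (mega) recovered reads was 60.1 to 109 for the MCL libraries, 22.6 to 92.4 for BL, 22.7 to 165 for ABC and 2.55 to 108 for GCB DLBCL. In 9 libraries, 8 of GCB DLBCL and 1 of ABC DLBCL, the genes ZNF593 and EMC6 had no read, while every one of the other 25 showed 444 or more and 554 or more reads, respectively. These 9 libraries (DB, DOHH-2, Karpas422, NU-DHL-1, OCI-Ly1, OCI-Ly7, SU-DHL-6 and WSU-DLCL2 of GCB DLBCL, and NU-DUL-1 of ABC DLBCL) are called the second class below, and the others the first class. The second class was also the shallower, with 2.55 to 22.7 M reads against 22.6 to 165 M. The B-cell markers CD79A, CD79B, MS4A1 and PAX5 were above 10 in all 34 lines. The T-cell markers CD3D and CD3E, the monocyte markers CD14 and LYZ and the fibroblast gene COL1A2 were above 10 in none, while the epithelial marker EPCAM and the fibroblast gene COL1A1 were above 10 in 2 lines each. No libraries were identical, and the highest correlation of the 561 pairs was 0.979, between SP-49 and SP-53.

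Cyclins D1, D2 and D3, encoded by CCND1, CCND2 and CCND3, bind and activate the kinases CDK4 and CDK6 in G1 phase. The active complexes phosphorylate the retinoblastoma protein, which releases E2F transcription factors and allows entry into S phase, while the INK4 proteins bind the kinases and block them. Mantle cell lymphoma is known for the translocation that places CCND1 beside an immunoglobulin heavy-chain enhancer, and normal B cells use mainly cyclins D2 and D3. In RefSeq coordinates on GRCh38.p14, CCND1 lies on chromosome 11 (69641156 to 69654474), CCND2 on chromosome 12 (4273762 to 4305353), CCND3 on chromosome 6 (41934933 to 42050035), CDK4 on chromosome 12 (57747727 to 57752310) and CDK6 on chromosome 7 (92604921 to 92836573).

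The stretches just upstream of both kinase genes are shown as background, and no link between them and the levels of CDK4 or CDK6 was tested. Each holds the 250 bases before the RefSeq start, 5′ to 3′ on the minus strand of GRCh38.p14, and capitals mark CACGTG, the E-box hexamer that MYC and related factors can bind, which reads the same on both strands.

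CDK4, chr12:57752311-57752560: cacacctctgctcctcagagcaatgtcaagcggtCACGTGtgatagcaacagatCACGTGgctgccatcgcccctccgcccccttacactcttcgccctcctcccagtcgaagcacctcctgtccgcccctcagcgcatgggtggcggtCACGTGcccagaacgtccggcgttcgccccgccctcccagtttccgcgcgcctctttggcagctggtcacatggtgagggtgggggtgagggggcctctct

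CDK6, chr7:92836574-92836823: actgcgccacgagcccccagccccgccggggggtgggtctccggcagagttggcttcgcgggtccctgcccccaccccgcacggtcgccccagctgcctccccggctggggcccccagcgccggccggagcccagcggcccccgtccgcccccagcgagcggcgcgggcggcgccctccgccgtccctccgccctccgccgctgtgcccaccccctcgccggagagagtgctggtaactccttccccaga

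The CDK4 stretch held 3 copies of CACGTG and the CDK6 stretch held 0. Among 34943 RefSeq promoters of this length, 6.32% held at least 1 copy, 0.532% at least 2 and 0.0801% at least 3. Base composition differed as well, with 65.6% G and C for CDK4 and 80.0% for CDK6. The other CDK6 start and the 3 CCND3 starts listed in RefSeq held 0 copies. These are matches of letters and not measured binding.

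CCND1 was high in every MCL line and lower in every other line. In bulk RNA of a line, fewer cells with a transcript and less of it per cell cannot be told apart. Among the 11 MCL lines it ran from 12.59 in JVM2 through a median of 16.83 to 17.35 in Z-138, or 6581 to 453072 reads. In GCB DLBCL the lowest, median and highest levels were 4.55, 5.22 and 10.43, in ABC DLBCL 4.55, 5.64 and 9.81, and in BL the 3 lines had 4.55 (Daudi), 5.91 (Raji) and 6.90 (Ramos). The MCL lines did not overlap the other 23 lines, a pattern that only 0.0226% of the 22167 genes tested showed with MCL on the high side, and CCND1 was chosen with this pattern known. The mean was 16.27 ± 1.43 (SD, n = 11) in MCL, while 5.70 ± 1.58 (SD, n = 14) for GCB, 6.19 ± 1.91 (SD, n = 6) for ABC DLBCL and 5.79 ± 1.18 (SD, n = 3) for BL lay within their spread of one another. MCL exceeded the mean of the other 3 pathologies by 10.38 ± 0.59 (SE), given as a description.

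Outside MCL, cyclin D1 transcripts were close to the limit of detection in most lines. At most 10 reads of CCND1 were counted in 14 of the 23 lines, and none in 6 of them, which allows up to 3 reads. Only NU-DHL-1, at 10.43, and OCI-Ly3, at 9.81, were above 8. The NU-DHL-1 level rested on 97 reads of a library of 2.55 M, whereas the OCI-Ly3 level rested on 3271 reads of 165 M. In ABC DLBCL the next highest line after OCI-Ly3 was OCI-Ly10, with 95 reads.

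Cyclin D2 transcripts ranged from near absence to very high levels from line to line. CCND2 was above 12 in 5 lines, namely HBL-1 (15.75), OCI-Ly3 (14.15) and OCI-Ly10 (13.67) of ABC DLBCL, JVM2 (13.24) of MCL and DOHH-2 (12.36) of GCB DLBCL. The next level was 10.69, in the MCL line HBL-2, and 18 of the 34 lines had at most 10 reads. The remaining ABC DLBCL lines lay at 4.82 (SU-DHL-8), 4.91 (MD903) and 5.53 (NU-DUL-1), so that this pathology fell into 3 high and 3 low lines with a gap of over 8 units between them. Lowest, median and highest levels were 4.55, 6.11 and 13.24 in MCL and 4.55, 5.41 and 12.36 in GCB DLBCL, while the BL lines had 4.84 (Raji), 4.89 (Daudi) and 5.36 (Ramos). By mean, the order was ABC DLBCL (9.80 ± 5.22), MCL (7.41 ± 2.81), GCB DLBCL (6.19 ± 2.08) and BL (5.03 ± 0.29, all SD over lines), and neighbours in this order did not differ beyond their spread.

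In MCL the line with the least CCND1 was the line with the most CCND2. JVM2 had 12.59 for CCND1 and 13.24 for CCND2, and HBL-2, second for CCND2, had 15.27 for CCND1. Across the 11 MCL lines, which differ in depth, Pearson's r of CCND1 and CCND2 was -0.83 and Spearman's rho -0.67, and r was -0.61 without JVM2 and Mino, the lines farthest from the median of CCND1. The MCL mean of CCND2 exceeded that of the other pathologies by 0.40 ± 1.12 (SE), and without JVM2 the difference was -0.19. JVM2 also had the lowest MCL level of SOX11, a transcription factor used as an MCL marker (4.84), and it was the highest of all lines for 13.6% of 13644 coding genes.

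Cyclin D3 was detected in every line and was lowest as a group in MCL. CCND3 ran from 9.88 in Mino through a median of 10.75 to 11.33 in HBL-2 among the MCL lines, a range of 1.45 units. In GCB DLBCL it ran from 9.46 in DOHH-2 through 11.81 to 13.95 in HT, and in ABC DLBCL from 10.20 in OCI-Ly3 through 11.16 to 15.99 in SU-DHL-8. The BL lines had 13.41 (Raji), 13.45 (Daudi) and 13.49 (Ramos). All 11 MCL lines were thus below the 3 BL lines, whereas they overlapped GCB and ABC DLBCL. For CDK6, too, all 11 lay below the 3 BL lines. The share of all genes separated from these few BL lines in this way was not counted. The group means were 10.58 ± 0.47 in MCL, 11.88 ± 1.39 in GCB DLBCL, 12.003 ± 2.28 in ABC DLBCL and 13.45 ± 0.04 in BL (SD over lines), with GCB and ABC DLBCL within their spread. MCL was lower than the mean of the others by a difference of -1.87 ± 0.50 (SE), and by -2.09 over first-class libraries.

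The 3 BL lines were close to each other in CCND3 although their libraries held 22.6 to 92.4 M reads. Their range was 0.08 units, and of 1469 genes with a BL mean above 12, 8 (0.545%) had a range as small. Reads of CCND3 in the same lines were 8525 in Daudi, 22761 in Raji and 16517 in Ramos.

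SU-DHL-8 carried the most CCND3, 159641 reads, and its level of 15.99 was followed by 13.95 in HT. Neighbouring genes were therefore inspected, a choice made after the values were seen. USP49, MED20 and BYSL on one side of CCND3 and TAF8 on the other were all highest in SU-DHL-8, at 13.57, 13.005, 14.16 and 13.62 against medians of 9.99, 10.17, 10.91 and 10.34 over the 34 lines. Of the 28 other coding genes within 1 Mb, 11 (39.3%) were highest in this line, against 1.88% of all 13644 coding genes. The next named genes, C6orf132 and GUCA1A, sat at the lowest value of the table there. Their medians over the 34 lines were only 5.36 and 4.55, so they mark no boundary of the high genes. For CCND2 the same inspection found 0 of 9 neighbours highest in HBL-1 and 0 in DOHH-2, against 2.80 and 3.75% of all coding genes, and 3 (33.3%) in JVM2, against 13.6%. For CDK6 it found 4 of 14 neighbours (28.6%) highest in DOHH-2, against 3.75%, and 0 in MD903, against 1.46%. For CCND1 it found 0 of 10 in Z-138, against 2.62%. DNA copy number was not measured.

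**Figure D1:**
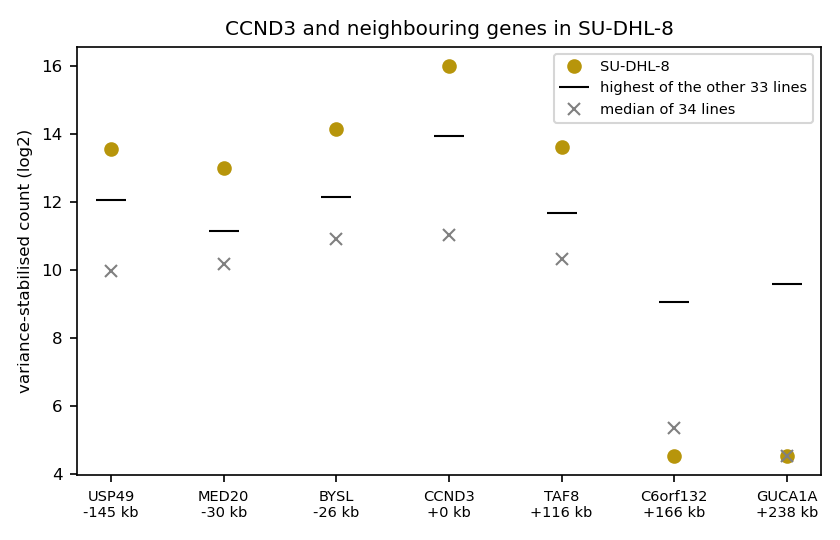
Level of CCND3 and of genes beside it (variance-stabilised count, log2) in SU-DHL-8 (circles), with the highest of the other 33 lines (bars) and the median of all 34 (crosses), against distance from CCND3 in kb. USP49, MED20, BYSL, CCND3 and TAF8 are highest in SU-DHL-8. C6orf132 and GUCA1A are at the lowest value there, and their medians over the 34 lines are also low, at 5.36 and 4.55.

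**Figure D2:**
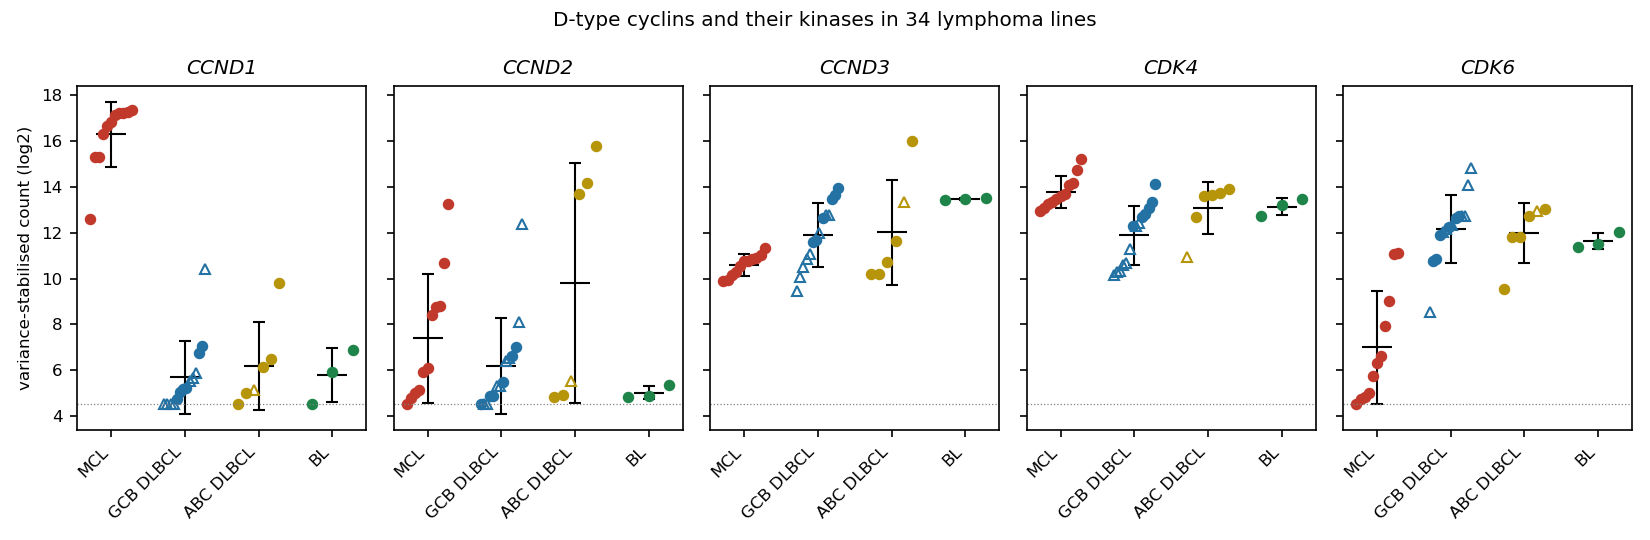
Level of each of the 5 genes (variance-stabilised count, log2) in the 34 lines by pathology. Each point is a line, filled circles are first-class and open triangles second-class libraries, bars are mean ± SD, and the dotted line is the value of 0 reads. CCND1 separates MCL, at 12.59 to 17.35, from the other lines, CCND2 is above 12 in 5 scattered lines, and 8 of the 11 MCL lines have less CDK6 than any other line.

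CDK4, the partner kinase found in most tissues, was high throughout. In MCL it ran from 12.94 in HBL-2 through a median of 13.60 to 15.20 in Jeko-1, with REC-1 next at 14.72. In GCB DLBCL the lowest, median and highest levels were 10.17, 12.27 and 14.10, and in ABC DLBCL 10.93, 13.61 and 13.88. The BL lines had 12.73 (Daudi), 13.20 (Ramos) and 13.47 (Raji), inside the MCL range except for Daudi. Every one of the 34 lines was above 10, and Jeko-1, REC-1 and Z-138 exceeded all other pathologies. CDK4 was higher in MCL than in GCB DLBCL by 1.89 ± 0.41 (SE), but by 0.73 ± 0.31 over first-class libraries, and than in the mean of the others by 1.07 ± 0.40, or 0.54 ± 0.25 over first-class libraries.

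CDK6, known for its expression in blood cells, had the largest negative difference in MCL of the 5 genes. Its MCL levels ran from 4.55 in Jeko-1 through a median of 6.32 to 11.12 in JVM2. By reads, Jeko-1 had 0, SP-53 1, Mino 2, SP-49 8, REC-1 36, MAVER-1 106, UPN1 131, Z-138 545, HBL-2 1638, JVM2 2346 and GRANTA519 3654. All these libraries held at least 60.1 M reads, and 0 reads in Jeko-1 allow up to 3. The MCL lines thus comprised 4 with at most 8 reads, 4 with 36 to 545 and 3 with 1638 or more. In GCB DLBCL CDK6 ran from 8.55 through 12.30 to 14.80, in ABC DLBCL from 9.56 through 12.25 to 13.02, and in BL it was 11.38 (Ramos), 11.51 (Raji) and 12.03 (Daudi). The lowest lines outside MCL were NU-DHL-1 (8.55, 24 reads) and SU-DHL-8 (9.56, 1745 reads), and 8 of 11 MCL lines lay below both.

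By mean, CDK6 was 12.17 ± 1.48 in GCB DLBCL, 11.97 ± 1.30 in ABC DLBCL and 11.64 ± 0.34 in BL, which lay within their spread, and 7.001 ± 2.46 in MCL (SD over lines). The difference of MCL from the mean of the others was -4.93 ± 0.67 (SE), and -4.75 ± 0.73 over first-class libraries. Jeko-1, with the highest CDK4, had the lowest CDK6. Within MCL, however, r of CDK4 and CDK6 was -0.22 over 11 lines and 0.22 without Jeko-1 and REC-1.

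**Figure D3:**
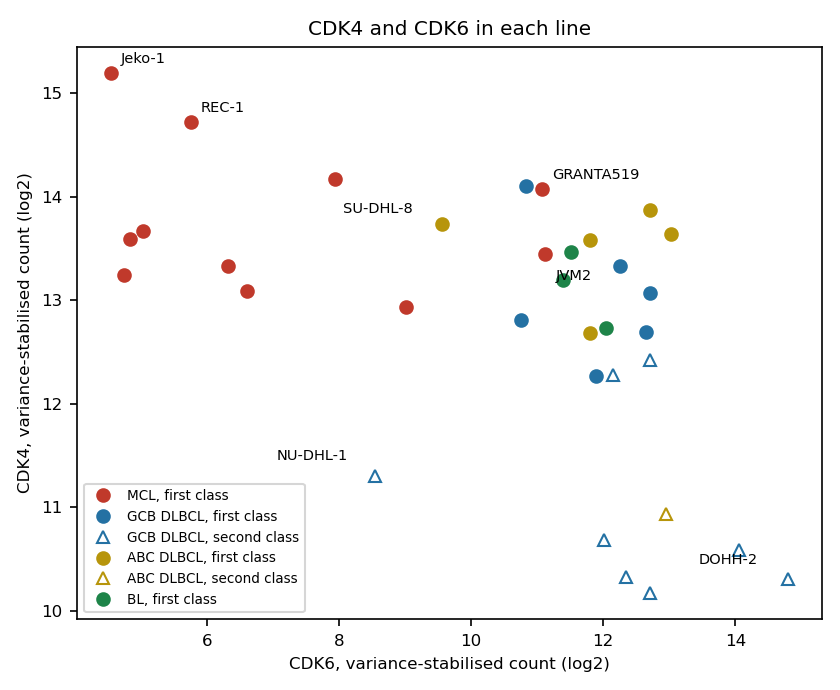
CDK4 against CDK6 in each line (variance-stabilised counts, log2), coloured by pathology, with open triangles for second-class libraries. MCL lines spread along the CDK6 axis from 4.55 to 11.12 at CDK4 levels of 12.94 or more, while 7 of the 9 second-class libraries lie below a CDK4 level of 12.

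The D cyclin that gave most reads differed between nearly all MCL lines and the other lines, a contrast by which the genes were chosen. Shares of reads are not divided by transcript length, so a lead could shrink or turn with length. The Wilson 95% intervals given cover counting error only. CCND1 gave over 90% of D cyclin reads in 10 of the 11 MCL lines, from 90.5% in HBL-2 to 99.4% in MAVER-1. In JVM2, CCND2 gave 57.1% (56.4 to 57.8%) and CCND1 36.4% (35.7 to 37.1%), a ratio of 1.57. CCND3 led in 13 of 14 GCB DLBCL lines, in 3 of 3 BL lines and in 3 of 6 ABC DLBCL lines. CCND2 led in the remaining 4 lines, with 88.8% in DOHH-2, 94.7% in HBL-1, 91.6% in OCI-Ly10 and 90.1% in OCI-Ly3.

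A single cyclin therefore supplied over 90% of the reads in 31 of the 34 lines. The 3 exceptions were JVM2, DOHH-2 and NU-DHL-1, the last with 71.6% CCND3 (67.0 to 75.8%) and 24.2% CCND1 (20.3 to 28.6%). CCND3, though never leading in MCL, held 0.611 to 6.46% of the reads there. In the 3 ABC DLBCL lines led by CCND2 it held 5.31 to 8.02%, and its levels there were 10.20 in OCI-Ly3, 10.20 in OCI-Ly10 and 11.61 in HBL-1, against 10.70 in MD903, 13.31 in NU-DUL-1 and 15.99 in SU-DHL-8. Across the 23 lines outside MCL, r of CCND2 and CCND3 was -0.49 (rho -0.44), and -0.63 (rho -0.69) over the 14 of the first class.

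CDK4 gave more reads than CDK6 in 27 of the 34 lines, among them all 11 MCL lines and all 25 first-class libraries. In MCL its share ran from 83.5% in JVM2 through a median of 99.6% to 100% in Jeko-1. Outside MCL the first-class share ran from 50.8% in Pfeiffer through a median of 68.6% to 95.05% in SU-DHL-8. CDK6 led in 7 lines, DB, DOHH-2, Karpas422, OCI-Ly1, SU-DHL-6 and WSU-DLCL2 of GCB DLBCL and NU-DUL-1 of ABC DLBCL, and all 7 were second-class libraries. The largest lead was in DOHH-2, with 3204 reads of CDK6 against 137 of CDK4, a ratio of 23.4. In the others this ratio ran from 1.22 in OCI-Ly1 to 11.4 in DB. Whether CDK6 also leads per transcript was not tested, as no lengths were used. In OCI-Ly7 the interval of the CDK4 share, 49.1 to 55.5%, included equal shares. Library class and the leading kinase therefore moved together.

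Adding the genes up, D cyclin reads had the highest mean in MCL, while kinase sums lay within the spread of one another. The log2 of summed normalised D cyclin reads was 16.43 ± 1.07 in MCL, 13.98 ± 1.95 in ABC DLBCL, 13.45 ± 0.04 in BL and 12.13 ± 1.22 in GCB DLBCL (SD over lines). For CDK4 plus CDK6 it was 13.81 ± 0.70, 13.84 ± 0.50, 13.58 ± 0.19 and 13.37 ± 0.86 in the same order. The sums are of reads not divided by transcript length, so similar sums need not mean similar numbers of transcripts. Within GCB DLBCL the D cyclin sum was 12.83 in the first class and 11.61 in the second, and the kinase sum 13.64 and 13.16. The lowest MCL cyclin sum was 14.04, in JVM2, and 3 ABC DLBCL lines, OCI-Ly3 (14.29), HBL-1 (15.82) and SU-DHL-8 (15.99), lay above it.

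**Figure D4:**
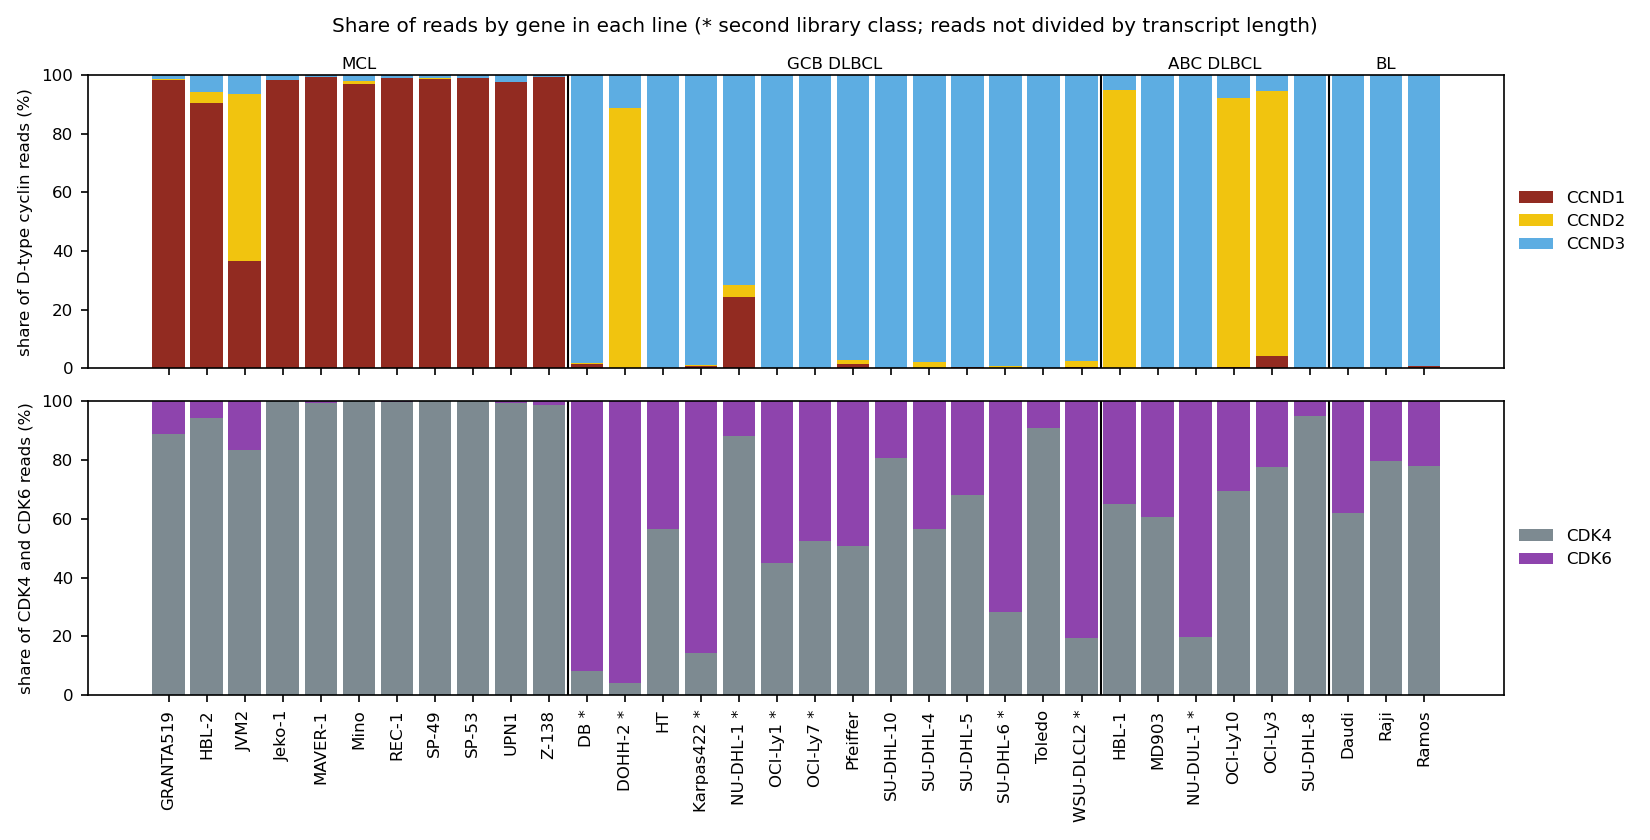
Share of D-type cyclin reads (upper panel, %) and of CDK4 plus CDK6 reads (lower panel, %) by gene in each of the 34 lines, ordered by pathology, with an asterisk for second-class libraries. CCND1 fills the MCL bars except in JVM2, CCND2 fills DOHH-2, HBL-1, OCI-Ly10 and OCI-Ly3, and CDK6 exceeds 50% in 7 bars, all with an asterisk.

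None of the 5 genes passed the test in the 3 comparisons that leave MCL out. With limma and Benjamini-Hochberg adjustment over all 22167 genes, 0.726% of genes were called between ABC and GCB DLBCL, 0.153% between BL and GCB DLBCL and 0.117% between BL and ABC DLBCL. At an unadjusted p under 0.05 limma gave 2, 0 and 1 of the 5 genes, against 17.3, 15 and 8.61% of all genes, and the limma voom fit on recovered reads called 0 in each. CCND2 was higher in ABC than in GCB DLBCL by 3.62 ± 1.39 (SE; 95% interval 0.80 to 6.44), with a limma adjusted p of 0.194 and an unadjusted two-sided exact permutation p of 0.0297, and 3 of the 6 ABC lines exceeded all GCB lines. Over first-class libraries this difference was 5.09 (limma adjusted p = 0.277). CCND2 was also lower in BL than in ABC DLBCL, by a difference of -4.77 ± 2.01 (limma adjusted p = 0.473; exact permutation p = 0.25).

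CDK4 in ABC against GCB DLBCL differed by 1.19 ± 0.49 (limma adjusted p = 0.222; exact permutation p = 0.0676), and by 0.46 over first-class libraries. CCND3 in BL against GCB DLBCL differed by 1.57 ± 0.80 (95% interval -0.07 to 3.20; limma adjusted p = 0.349), and by 0.63 over first-class libraries. The remaining comparisons of CCND3 depended on both the library class and SU-DHL-8. Leaving out SU-DHL-8 was not planned and was chosen after its CCND3 level was seen. The p-values without this line are therefore a description and not a test. Between ABC and GCB DLBCL the CCND3 difference was 0.12 ± 0.62 over all lines and -1.08 over first-class libraries. Without SU-DHL-8 alone it was -0.68 ± 0.54 (limma adjusted p = 0.544), and with both the second class and SU-DHL-8 left out it was -2.14 ± 0.42 (limma adjusted p = 0.0155, where 0.803% of genes were called). Between BL and ABC DLBCL it was 1.45 ± 0.89 over all lines, 1.71 ± 0.86 over the first class (limma adjusted p = 0.401) and 2.24 ± 0.76 without SU-DHL-8 alone (limma adjusted p = 0.230). With both left out it was 2.77 ± 0.49 (limma adjusted p = 0.00641, where 1.25% of genes were called). CDK6 and CCND1 differed by less than 0.6 units in all 3 comparisons, with standard errors of 0.73 to 1.21.

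CDK4 differed between the library classes within a single pathology. Among the 14 GCB DLBCL lines, CDK4 was 11.01 ± 0.90 (SD, n = 8) in the second class and 13.04 ± 0.63 (SD, n = 6) in the first, a difference of -2.03 ± 0.40 (SE; limma adjusted p = 0.00328; exact permutation p = 0.00133, unadjusted). Of the 8 second-class lines, 6 lay below the lowest first-class line. In this comparison limma called 15.6% of all genes tested, and 6.71% of all genes tested were called lower in the second class. CCND3 was lower by a difference of -1.65 ± 0.57 (limma adjusted p = 0.0632; exact permutation p = 0.0243, unadjusted), while CCND1, CCND2 and CDK6 differed by 0.03, 1.08 and 0.57 with limma adjusted p of 0.988, 0.540 and 0.667. Library class, depth and the lines themselves cannot be told apart here.

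TSPAN31, a tetraspanin gene, overlaps CDK4 by 2493 bases, and nothing in the sources says whether reads were counted by strand. Its level differed by -0.30 between the classes within GCB DLBCL (limma adjusted p = 0.586). In Jeko-1 TSPAN31 was at 10.21, the second highest of the 34 lines, and in REC-1 at 8.05, the lowest, around a median of 9.56. JVM2 had the most TSPAN31, with 8949 reads at 13.03, beside 11904 reads of CDK4. The other genes within 1 Mb of CDK4 were highest in Jeko-1 in 4 of 33 cases and in REC-1 in 4 of 33 (12.1% each), against 3.31 and 3.33% of all coding genes.

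Of 57 further genes of the pathway, 1 was higher and 0 were lower in MCL than in the mean of the other pathologies, where limma called 3.6% of all genes higher and 0.862% lower. That gene was CDKN1C, which encodes the CIP/KIP inhibitor p57. Its levels ran from 6.39 in JVM2 to 12.46 among the MCL lines, with a mean of 8.98 ± 1.64 (SD, n = 11), and from 4.55 to 7.01 in the 23 others, 18 of which had at most 10 reads. The groups overlapped through JVM2, and the difference was 3.95 ± 0.44 (SE; limma adjusted p = 3.06e-07). The gene lists were chosen with earlier results of these data known. The p-values and calls of the 57 genes, here and below, are therefore a description and not an independent test. CDKN1C was also called against GCB DLBCL (4.03), ABC DLBCL (3.74) and BL (4.08) taken singly.

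The other inhibitors did not pass in this comparison. CDKN1B, encoding p27, had a difference of 1.61 ± 0.52 (limma adjusted p = 0.0719) and CDKN1A, encoding p21, one of 1.66 ± 0.79 (limma adjusted p = 0.270). Among the INK4 genes CDKN2A had -2.18 ± 1.19, CDKN2C -1.07 ± 0.73, CDKN2B -0.25 ± 0.36 and CDKN2D 0.26 ± 0.44, and CDKN2A varied from 4.55 to 13.32 within MCL and from 4.55 to 12.99 outside it. The median difference of the 7 inhibitors was 0.26, against -0.01 over all genes tested. RB1, the gene of the retinoblastoma protein, had a difference of -0.01 ± 0.62, with 5.598 in UPN1 as the lowest MCL level.

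Genes outside the inhibitor list gave no call in the same comparison, where limma called 3.6% of all genes higher and 0.862% lower. In lists this short, the absence of calls is near that share and does not show equal levels. Nearest to the threshold were E2F6, at 0.62 (limma adjusted p = 0.0613), and E2F5, at -0.88 (limma adjusted p = 0.0787). In the list of RB family and E2F genes 0 of 13 were called and the median difference was -0.26. The lists of other cell cycle cyclins and kinases (0 of 13, median 0.08), of cyclin D turnover and kinase folding (0 of 11, median 0.02) and of S phase targets of E2F (0 of 13, median 0.24) gave no call either. Against GCB DLBCL alone, where limma called 11% of genes higher and 12.7% lower, 6 of the 57 were higher (CDKN1A, CDKN1C, E2F6, CDK2, TYMS and PCNA) and 2 lower (GSK3B, encoding a kinase that marks cyclin D1 for degradation, and FBXO31). Over first-class libraries 1 was higher, CDKN1C, and 0 were lower, where 1.56 and 1.27% of genes were called. Against ABC DLBCL, where 0.523 and 0.167% of genes were called, CDKN1C was higher and 0 were lower. Against BL, where 0.794 and 0.374% were called, CDKN1C was higher and E2F5 lower, by a difference of -1.90 ± 0.49 (limma adjusted p = 0.0437). The E2F5 call was lost without any 1 of the 3 BL lines, without any 1 of 7 MCL lines (GRANTA519, Jeko-1, Mino, SP-49, SP-53, UPN1 or Z-138), over re-analysed lines and with no filter on low values. Over first-class libraries the E2F5 call was kept (limma adjusted p = 0.022). None of the 57 was called in the 3 comparisons without MCL.

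**Figure D5:**
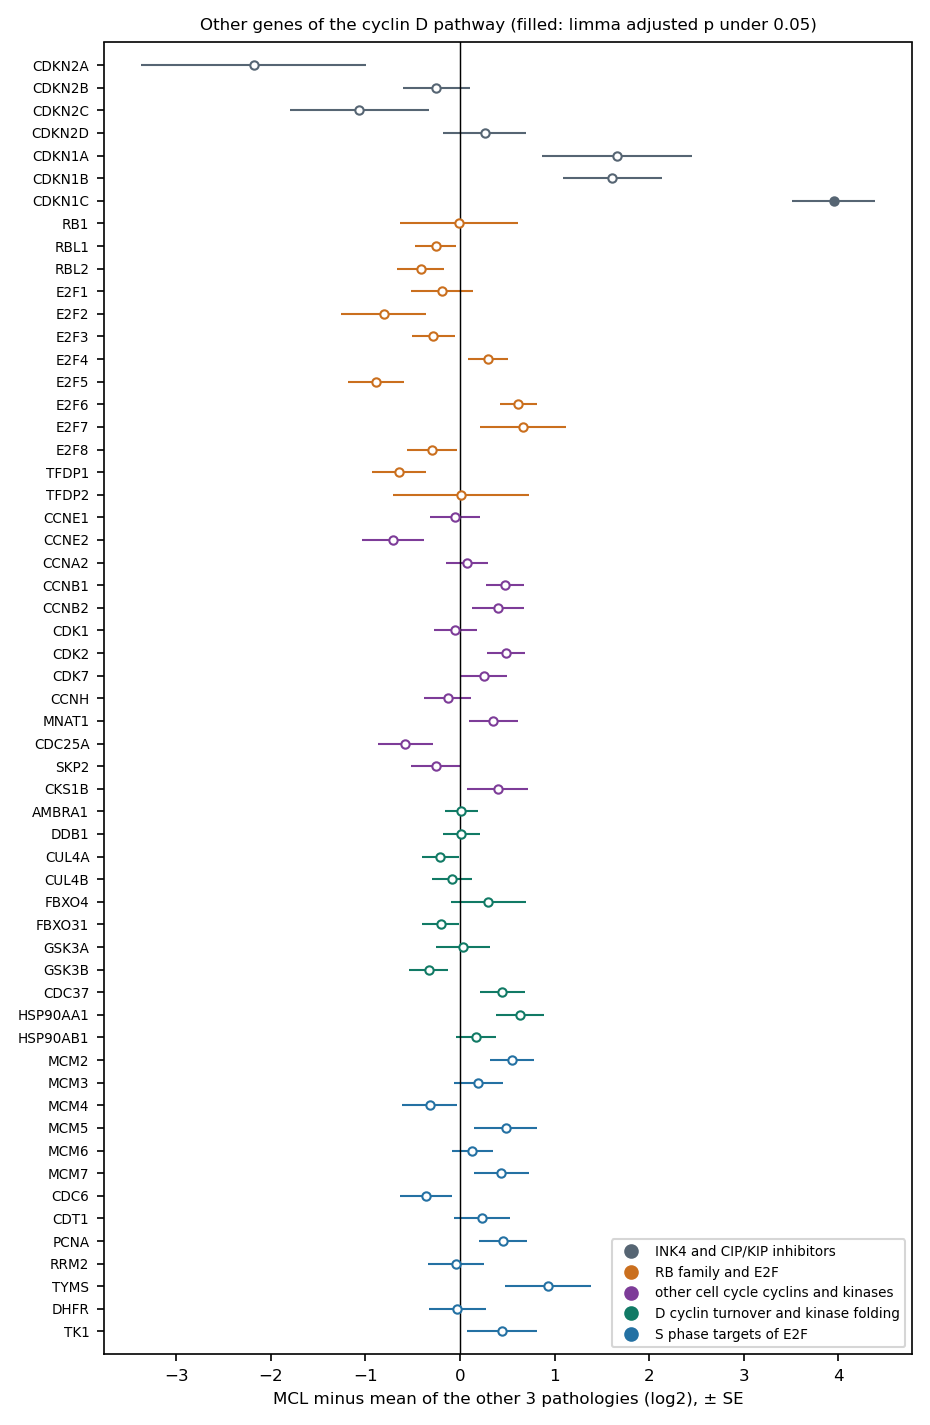
Difference of MCL from the mean of the other 3 pathologies (log2, ± SE) for 57 other genes of the cyclin D pathway, coloured by list, with filled points for a limma adjusted p under 0.05. CDKN1C, at 3.95, is the only filled point.

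Among the 25 first-class lines, the 5 genes differed in how much they varied, and the SD of each exceeded that of most genes. The SD of CCND1 was 5.41, larger than that of 99.99% of genes, that of CCND2 3.47 (99.9%) and that of CDK6 2.97 (99.6%). For CCND3 it was 1.61 (91.2%) and for CDK4 0.66 (57.9%). These values pool MCL with the other lines, so for CCND1 and CDK6 they include the MCL difference by which the genes were chosen. Over first-class lines outside MCL, the SD was 1.42 (88.4%) for CCND1, 4.01 (99.9%) for CCND2 and 1.65 (91.7%) for CCND3. For CDK4 it was 0.54 (50.5%) and for CDK6 0.94 (77.25%) in the same lines. Within MCL alone the order changed, with CCND2 (2.81) and CDK6 (2.46) more variable than CCND1 (1.43), CDK4 (0.70) and CCND3 (0.47).

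The genes with the most similar profile across the 34 lines were named for each gene by Pearson's r, as a description over lines that differ in pathology, class and depth. For CCND1 they were TRIM72 (0.91), FAM64A (0.90) and CNN3 (0.90), and for CCND2 PLA2G4A (0.87), RP11-79H23.3 (0.85) and RP11-320N7.1 (0.85). Those of CCND1 followed the contrast between MCL and the rest, since within MCL their r was 0.05, 0.15 and -0.73. PLA2G4A had an r of 0.62 with CCND2 within MCL and 0.95 among the 23 other lines. For CCND3 they were PPFIBP1 (0.64), HAUS8 (0.63) and PLS1 (0.61), so no gene followed CCND3 closely. For CDK6 they were NR3C1, the glucocorticoid receptor gene (0.82), SLC16A7 (0.78) and WDR26 (0.73). Their r with CDK6 was 0.71, 0.56 and 0.59 within MCL, and 0.61, 0.25 and 0.49 among the 23 other lines. For CDK4 they were ZFPL1 (0.93), KAT5 (0.92) and ANAPC15 (0.92), which fell to 0.72, 0.74 and 0.57 over the 25 first-class lines.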

How the data were processed

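RNA sequencing values of 34 lymphoma lines were used, 1 library per line, grouped by the pathology in the labels. The table deposited by the authors holds variance-stabilised read counts in log2 units. The submitters' processing notes name STAR 2.5.3a, R 3.6.1, DESeq2 1.26.0 and GRCh38, without roles, and the annotation, counter and strand setting are not given in the sources used here. The transform compresses differences near its lowest value, 4.55. Inverting it gave whole reads, within 0.05, for 100% of values in every library, so shares and sums were computed from reads. No transcript lengths were used.

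Genes more than 1 log2 unit above the lowest value in at least 3 lines were kept (22167). One mean per pathology was fitted by limma (3.58.1, R 4.3.3) using an intensity trend, and p-values were adjusted by Benjamini-Hochberg over all genes (threshold 0.05). The fit was tested on simulated data. Python 3.11.15 and NumPy 2.4.6 served for exact permutation tests. The members and the gene lists were chosen with earlier results of these data known. MCL differences of the 5 genes, correlations and sums therefore carry no p, although permutation tests had been planned for correlations and sums. For the library classes within GCB DLBCL, the exact p is unadjusted beside limma's adjusted p.

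Named genes were the 5 members, up to 3 genes per direction and list past the threshold, the 3 genes of highest r with each member, and genes that overlap or neighbour a member. Those named for the single MCL comparisons were added as counts of few genes. Alternatives were other normalizations, filters, library sets, a class covariate, limma without the trend, voom on reads and leaving out lines. Symbols and promoters came from RefSeq tables for GRCh38.p14, with no promoter row for CCND1 or CCND2 matched by symbol. P-values measure the spread between lines. A further B-cell marker is not reported here.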

Additional observations from a re-analysis of the deposited data

Results flagged for a closer look

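A test for a line far from the others, in which chance flags about 1 in 20 groups, was applied only to ABC DLBCL, with 6 lines. Lines of MCL, GCB DLBCL and BL were not tested in this way. Of the 5 genes tested in ABC DLBCL, 2 had such a line. The share of all genes with such a line was not counted, so the 2 flags show no excess. For CCND1, 3 of the 6 lines had at most 10 reads, near the lowest value. For CCND1 it was OCI-Ly3, at 9.81, whose gap to the next line was 0.630 of the group's range against a limit of 0.625. For CDK6 it was SU-DHL-8, at 9.56, whose gap was 0.647 of the range. SU-DHL-8 was also the line with the most CCND3, and OCI-Ly3 one of the 3 ABC DLBCL lines led by CCND2.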

How the results depend on the processing

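The MCL differences of CCND1, CCND3, CDK4 and CDK6 from the mean of the others kept their direction under every alternative, at 10.11 to 12.68, -2.18 to -1.80, 0.54 to 1.25 and -6.99 to -4.68. Voom on recovered reads compresses low values less than the deposited transform, though not to nothing. For CCND1 it gave 12.68, 12.91, 12.44 and 12.70 against the mean of the others, GCB DLBCL, ABC DLBCL and BL. For CDK6 it gave -6.99, -7.20, -7.03 and -6.74 in the same order. CDK4 in MCL against GCB DLBCL fell to 0.73 over first-class libraries, 0.73 without libraries under 10 M reads and 0.67 with class as a covariate. CCND2 in MCL against the others was -0.19 to 0.68 with each MCL line left out. Between ABC and GCB DLBCL, the exact permutation p of CCND2 passed 0.05 (difference 3.62). CCND3 turned to -1.08 (first class), -0.821 (libraries of at least 10 M reads), -0.29 (class covariate) and -0.34 (voom), and CDK6 to 0.125 (libraries of at least 10 M reads) and 0.0775 (class covariate). With each ABC or BL line left out, over all lines or the first class, values between ABC and GCB DLBCL were -0.22 to 1.19 for CCND1, -2.14 to 0.48 for CCND3 and -0.41 to 0.48 for CDK6. Between BL and GCB DLBCL they were -0.46 to 0.73 for CCND1 and -0.0793 to 1.45 for CDK4, and CCND1 was -0.0316 with class as a covariate. Between BL and ABC DLBCL they were -1.17 to 0.32 for CCND1, 1.09 to 2.77 for CCND3, -0.58 to 0.26 for CDK4 and -0.81 to 0.18 for CDK6, with CCND1 at 0.21 over re-analysed lines and CDK4 at -0.37 over the first class and -0.30 with class as a covariate. Pathway genes higher in MCL were 2 without the trend and 2 with voom, and 1 to 2 with each MCL or BL line left out, and those lower were 1 with median-centring, 1 with voom and 0 to 1. Genes called in MCL against GCB DLBCL numbered 5245, and 628 over the first class. Over the first class, CCND3 led in 11 lines, CDK6 in 0, and r of CCND3 and CDK4 outside MCL was -0.0818 against 0.33. CCND3 between the library classes was -1.32 on log2 reads per M (exact permutation p = 0.0566) and -1.65 with limma. Beyond what is stated, the cause of these shifts was not tested. Alternatives by coding or transcript length were not run, as no lengths were used. No paired analysis was possible because replicate numbers only follow accession order. In 8 libraries under 10 M reads, a single read lies well above the lowest value, so CCND1 and CCND2 are least certain there. Leaving out ABC DLBCL or MCL lines, and any line within the first class, was chosen after seeing the data.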
